A study of Lithobates pipiens with 72 samples.

Results

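Both transcripts described here stand at the entry to known defences against ferroptosis, a form of cell death driven by peroxidised membrane lipids. They are the rows Rana_pipiens_Transcript_256988, named apoptosis-inducing factor 2-like after a Xenopus laevis protein, and Rana_pipiens_Transcript_300534, named cystine/glutamate transporter after a Xenopus tropicalis protein. They are 2 of the 19128 transcript rows of the count table. They were chosen by name and selected on their response to TNT, so their TNT values are given as a description with no test against the TNT control. The names rest on the closest Xenopus protein, and neither ferroptosis nor lipid peroxidation was measured.

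In mammals AIFM2, also called FSP1, is an oxidoreductase at membranes that uses NAD(P)H to reduce ubiquinone and vitamin K, and the reduced forms stop the spread of lipid peroxides. The cystine/glutamate transporter, SLC7A11 or xCT, is the light chain of an exchanger that brings cystine into the cell and lets glutamate out. The heavy chain SLC3A2 carries it to the plasma membrane. Cystine is reduced to cysteine, which limits the synthesis of glutathione, the cofactor of the lipid peroxide-reducing enzyme GPX4. The pathways run in parallel, and both genes are known in mammals as targets of the transcription factor NRF2.

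RNA was sequenced from whole tadpoles of the northern leopard frog, Rana pipiens, exposed for 96 h in beakers to TNT (trinitrotoluene), NQ (nitroguanidine), MeNQ (methylnitroguanidine) or IMX-101. IMX-101 is an insensitive munition made of DNAN (dinitroanisole), NTO and NQ. The groups were a control and 3 doses of TNT (3.4, 2.3 or 1.5 mg/L), a control and 10, 20 and 40 mg/L of IMX-101, a control and 30, 150, 750 and 3750 mg/L of NQ, and a control and 34, 170, 851 and 4225 mg/L of MeNQ. Each of the 18 groups had 4 libraries, lettered A to D, and each library pooled up to 5 tadpoles of 1 beaker. All tadpoles were 7 to 10 days old at the start, controls included, and each exposure had its own control in dechlorinated tap water. TNT had been coated from acetone, which was evaporated before water was added, and the IMX-101 solutions were brought to neutral pH with NaOH. Doses are nominal and taken from the labels of the samples. The design text of the series gives 170 mg/L for the second NQ dose and 150 and 4255 mg/L for the second and highest MeNQ doses.

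The 72 libraries held 1674617 to 21656267 estimated counts, with a median of 10785949. TNT control A was the shallowest. The AIFM2-like row had 87 to 13761 counts per library and the transporter row 5 to 834. Levels are given as CPM (counts per 1000000 of the library total, scaled by TMM). The lengths of the transcripts are unknown, so the level of one row is not compared with that of the other. A change is the log2 change against the control of the same exposure from edgeR's quasi-likelihood fit, ± its standard error, and the adjusted p is Benjamini-Hochberg's over all transcripts tested. In whole bodies, more cells with a transcript and more of it per cell cannot be told apart.

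Both transcripts were higher in every TNT group and every IMX-101 group than in the matching control, and neither passed the test at any dose of NQ or MeNQ. AIFM2-like mRNA reached 15.6 times its control mean at 3.4 mg/L TNT and 4.23 times at 40 mg/L IMX-101. The transporter reached 12.7 times and 5.41 times. At the highest doses of NQ and MeNQ the AIFM2-like means were 1.05 and 1.10 times the control, and those of the transporter 1.42 and 1.46 times.

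**Figure D1:**
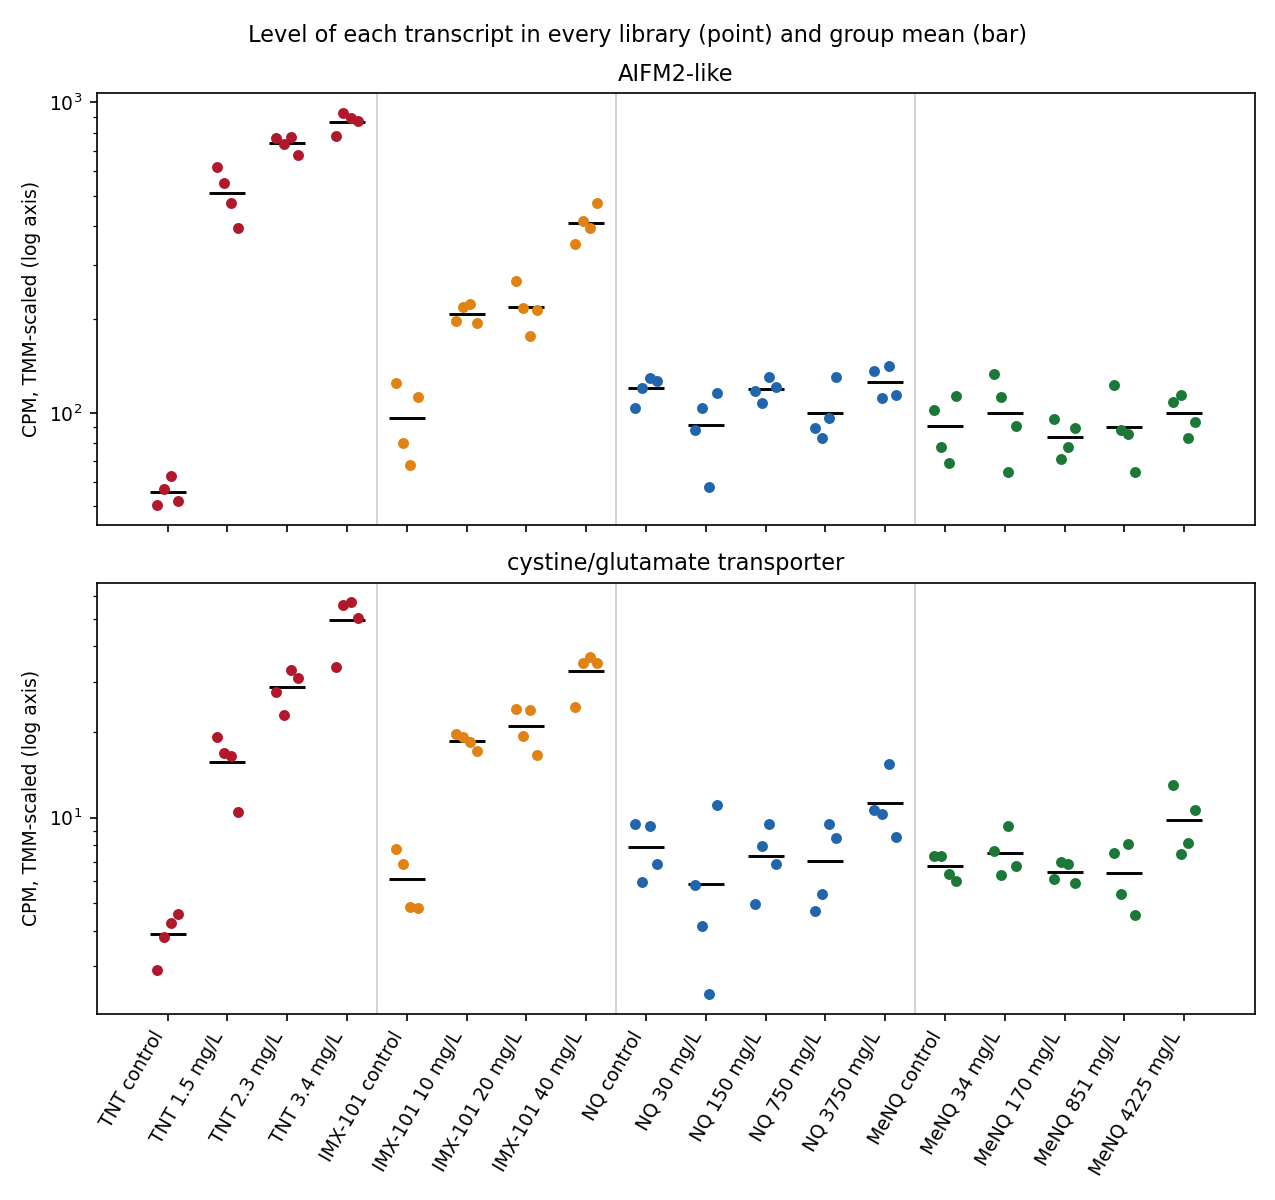
CPM (TMM-scaled, log axis) of the AIFM2-like transcript (top) and the cystine/glutamate transporter (bottom) in each of the 72 libraries, with a bar at each group mean, n = 4. All 12 libraries exposed to TNT and all 12 exposed to IMX-101 lie above their controls, while every NQ and MeNQ group overlaps its control except the transporter at 4225 mg/L MeNQ.

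The AIFM2-like transcript stood at 50.5, 56.9, 62.4 and 51.9 CPM in TNT control libraries A to D. At 1.5 mg/L the 4 libraries had 620.1, 549, 473 and 394 CPM. The groups did not overlap, with a gap from 62.4 to 394 CPM between them. At 2.3 mg/L they had 769.96, 736, 773 and 678 CPM, and at 3.4 mg/L 782, 924, 893 and 869 CPM. Each step lay above the one before it with no overlap between libraries. Between 2.3 and 3.4 mg/L the gap was narrow, from 773 to 782 CPM. How many of all transcripts separated in this way between neighbouring doses was not counted, for TNT or IMX-101. The means were 55.4 ± 5.41 (SD, n = 4) in the control and 509 ± 97.4, 739 ± 44.3 and 867 ± 61.3 CPM at the 3 doses. The log2 changes were 3.20 ± 0.13, 3.74 ± 0.13 and 3.99 ± 0.13. Most of the increase was present at the lowest dose, and the steps from 1.5 to 2.3 and from 2.3 to 3.4 mg/L added 0.54 ± 0.12 and 0.26 ± 0.12. Neither step passed the threshold over all transcripts (adjusted p = 0.182 and 0.436).

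The transporter stood at 2.90, 3.81, 4.27 and 4.59 CPM in TNT control libraries A to D, where library A rested on 5 counts. The libraries at 1.5 mg/L had 19.2, 16.8, 16.5 and 10.5 CPM. At 2.3 mg/L they had 27.7, 23.0, 33.0 and 31.0 CPM. All exposed libraries were above all controls, and the libraries at 2.3 mg/L were above all of those at 1.5 mg/L. At 3.4 mg/L the values were 33.9, 56.0, 57.1 and 50.4 CPM, again above every library of the dose below, with library A the lowest. Group means were 3.89 ± 0.74 (SD, n = 4), 15.7 ± 3.71, 28.7 ± 4.35 and 49.4 ± 10.7 CPM. The log2 changes were 1.98 ± 0.23, 2.85 ± 0.23 and 3.66 ± 0.24. The steps between them were 0.87 ± 0.21 and 0.81 ± 0.21, and those of AIFM2-like 0.54 ± 0.12 and 0.26 ± 0.12. The transporter's steps did not pass the threshold over all transcripts either (adjusted p = 0.242 and 0.125). Whether the steps differ between the transcripts was not tested. Per dose step, controls included, the slopes were 1.13 ± 0.22 for AIFM2-like and 1.15 ± 0.10 for the transporter.

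Both members had all 4 exposed libraries above all 4 controls at each TNT dose, as had 5.04% of the 12648 transcripts tested at 1.5 mg/L, 5.99% at 2.3 mg/L and 9.3% at 3.4 mg/L. Ordered by the p of the fit, AIFM2-like was first of the 12648 at each of the 3 doses. The transporter was at places 29, 17 and 13. In size of increase they were at places 146 and 161 at 3.4 mg/L of the 12648. These ranks describe what the choice of the members already used.

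**Figure D2:**
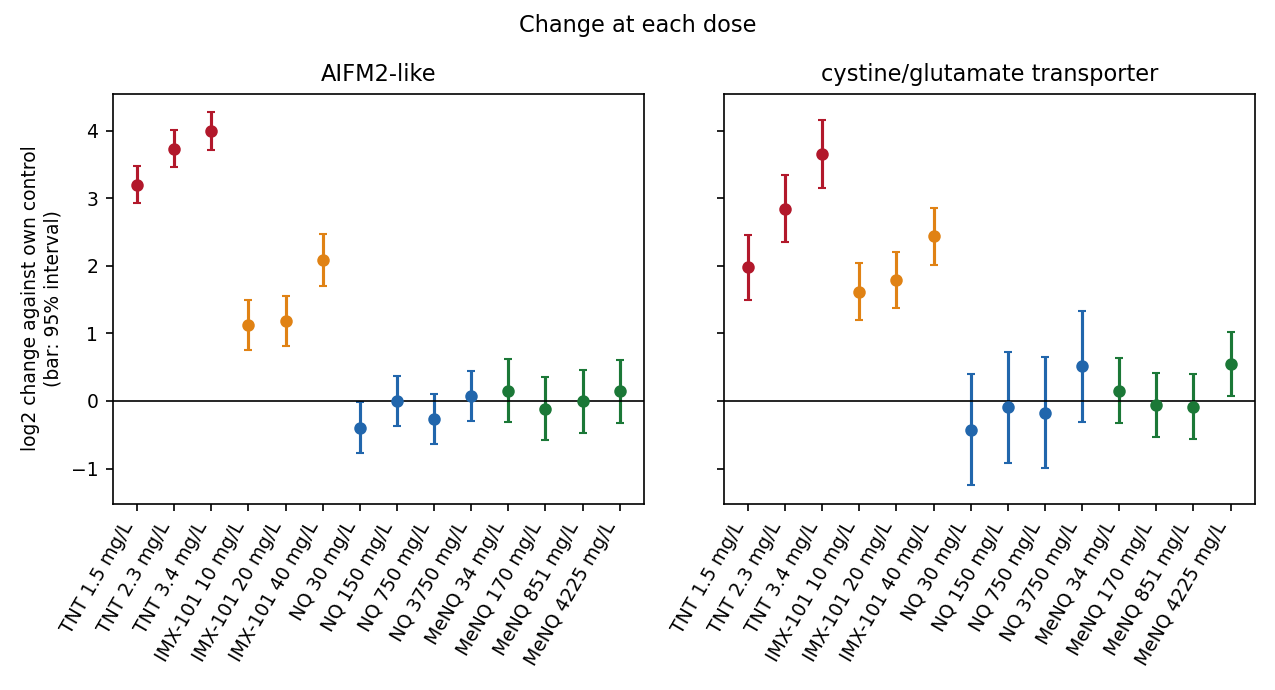
Log2 change of each transcript against the control of its own exposure at each dose, with 95% intervals from edgeR's fit (4 libraries per group). TNT changes run from 1.98 to 3.99 and IMX-101 changes from 1.12 to 2.43, while 15 of the 16 NQ and MeNQ estimates lie between -0.42 and 0.51 and the highest is 0.55.

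Both transcripts were also higher at each dose of IMX-101. The members were proposed with earlier results of all 4 exposures known, so these tests are not independent support for the choice. AIFM2-like mRNA had 125, 80.2, 67.8 and 112 CPM in IMX-101 control libraries A to D, a wider relative spread than in the TNT control. At 10 mg/L it had 197, 219, 225 and 195 CPM, and at 20 mg/L 266, 218, 177 and 214 CPM. These 8 libraries were all above the highest control, and both doses overlapped each other. At 40 mg/L the values were 349, 414, 394 and 474 CPM, above every library at the lower doses. The means were 96.3 ± 26.8 (SD, n = 4), 209 ± 15.1, 219 ± 36.4 and 408 ± 51.7 CPM.

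AIFM2-like mRNA rose by 1.12 ± 0.17 at 10 mg/L (adjusted p = 0.00758), 1.18 ± 0.17 at 20 mg/L (adjusted p = 0.00177) and 2.09 ± 0.18 at 40 mg/L (adjusted p = 1.25e-05). In a fit of the 8 libraries at 0 and 10 mg/L alone the change was 1.11 ± 0.19 and did not pass (adjusted p = 0.0636). Its slope was 0.63 ± 0.07 per dose step (adjusted p = 6.80e-05). The difference between 10 and 20 mg/L was 0.06 ± 0.17 (adjusted p = 0.989), and that between 20 and 40 mg/L was 0.90 ± 0.17 (adjusted p = 0.0485).

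The transporter had 7.77, 6.86, 4.84 and 4.79 CPM in the IMX-101 control and 19.7, 19.2, 18.5 and 17.1 CPM at 10 mg/L. At 20 mg/L it had 24.1, 19.4, 23.9 and 16.6 CPM. All 8 exposed libraries were above the highest control, and again the libraries at 10 and 20 mg/L overlapped. At 40 mg/L it had 24.5, 35.1, 36.6 and 35.1 CPM, with library A apart from the other 3 but above every library at 20 mg/L. The means were 6.07 ± 1.49 (SD, n = 4), 18.6 ± 1.10, 21.0 ± 3.65 and 32.8 ± 5.59 CPM. The transporter rose by 1.62 ± 0.19 (adjusted p = 0.00144), 1.79 ± 0.20 (adjusted p = 0.000227) and 2.43 ± 0.20 (adjusted p = 8.12e-06). Its slope was 0.72 ± 0.10 per step (adjusted p = 0.00031). Between 20 and 40 mg/L it differed by 0.65 ± 0.19, which did not pass (adjusted p = 0.233).

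Both members were called higher at each IMX-101 dose, where 0.718%, 2.66% and 3.84% of 12542 transcripts were called higher at 10, 20 and 40 mg/L. Libraries of exposed and control groups did not overlap for either member at any dose, a separation shown upward by 4.46%, 5.72% and 6.12% of transcripts. All libraries at 20 and 40 mg/L were sequenced in a set of runs of their own, and control and 10 mg/L libraries in others, so at 20 and 40 mg/L dose and run set cannot be told apart. Within the run sets, the comparison of 10 mg/L with the control gave 1.11 ± 0.19 for AIFM2-like and 1.61 ± 0.21 for the transporter. Within their set, 40 against 20 mg/L gave 0.90 ± 0.14 and 0.64 ± 0.19, neither past the threshold (adjusted p = 0.123 and 0.412).

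NQ was given at far higher mass concentrations, and no change of the AIFM2-like transcript passed the test. Of the 3 header lines of the deposited table of runs, 1 names a run of NQ control library A as 3750 mg/L. The other lines and the deposited table of libraries give it as control, as used here. The NQ control libraries had 104, 120.02, 129.8 and 127 CPM. At 3750 mg/L they had 136.1, 112, 141 and 114 CPM, 2 above and 2 below the highest control. The means at 30, 150, 750 and 3750 mg/L were 91.3 ± 25.2, 119 ± 9.51, 99.8 ± 21.1 and 126 ± 15.2 CPM beside 120.2 ± 11.6 in the control (SD, n = 4). The changes were -0.39 ± 0.18, 0.00 ± 0.18, -0.27 ± 0.18 and 0.07 ± 0.18, with adjusted p of 0.589 or above. The 95% interval at 3750 mg/L ran from -0.30 to 0.44, and that at 30 mg/L from -0.77 to -0.02. The value at 30 mg/L rested in part on library C, at 57.5 CPM against 88.1 to 116 CPM in the other 3. The 2 sequencing runs of that library gave 63.5 and 33.7 CPM, the widest gap between runs for this transcript. Without it the change at 30 mg/L was -0.22.

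The transporter had 9.48, 5.95, 9.32 and 6.86 CPM in the NQ control. At 3750 mg/L it had 10.6, 10.3, 15.5 and 8.58 CPM, with 3 of 4 libraries above the highest control. The mean there was 11.2 ± 2.96 CPM against 7.90 ± 1.77 in the control (SD, n = 4), and 5.85 ± 3.73, 7.31 ± 1.91 and 7.01 ± 2.33 CPM at the lower doses. The changes were -0.42 ± 0.39, -0.10 ± 0.39, -0.17 ± 0.39 and 0.51 ± 0.39, none past the threshold (adjusted p from 0.623 to 1). At 3750 mg/L the 95% interval ran from -0.30 to 1.33. It overlapped the interval of the change at 10 mg/L IMX-101, 1.20 to 2.04, and the difference between these exposures was not tested. The slope per dose step was 0.13 ± 0.08 (adjusted p = 0.62), and that of AIFM2-like 0.02 ± 0.04 (adjusted p = 0.923). None of the 2 members was called at any NQ dose, where 0%, 0.0154%, 0% and 4.48% of 12969 transcripts were called from the lowest to the highest dose.

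MeNQ differs from NQ by a methyl group and was given at the same molar doses. AIFM2-like mRNA had 102, 77.8, 68.7 and 114 CPM in the MeNQ control and 108, 114, 83.3 and 93.4 CPM at 4225 mg/L, and the groups overlapped. Its means at 34, 170, 851 and 4225 mg/L were 100.2 ± 29.6, 83.4 ± 11.2, 90.04 ± 24.0 and 99.7 ± 13.99 CPM beside 90.6 ± 20.9 in the control (SD, n = 4). Changes were 0.15, -0.12, -0.00 and 0.15, each ± 0.22, with adjusted p of 0.96 or above. The interval at the highest dose ran from -0.32 to 0.61.

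The transporter had 7.35, 7.31, 6.31 and 5.99 CPM in the MeNQ control. At 4225 mg/L it had 13.0, 7.47, 8.11 and 10.6 CPM, all above the highest control, by little in library B. At this dose 1 of the 2 members was so separated, and 2.58% of 13496 transcripts were. The mean was 9.80 ± 2.53 CPM against 6.74 ± 0.69 (SD, n = 4), and 7.51 ± 1.34, 6.46 ± 0.55 and 6.38 ± 1.68 CPM at the lower doses. The change at 4225 mg/L was 0.55 ± 0.23 (95% interval 0.07 to 1.03) and did not pass over all transcripts (adjusted p = 0.407), and the changes at the lower doses were 0.15, -0.06 and -0.08. Slopes were 0.09 ± 0.05 for the transporter (adjusted p = 0.735) and 0.01 ± 0.05 for AIFM2-like (adjusted p = 0.986). None of the 2 members was called at any MeNQ dose, where 0%, 0.156%, 0.437% and 0.393% of transcripts were called.

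Unadjusted p under 0.05 occurred in 2 of these 16 comparisons, AIFM2-like at 30 mg/L NQ (adjusted p = 0.589) and the transporter at 4225 mg/L MeNQ (adjusted p = 0.407). DESeq2's Wald test called none of the 16 either. Over all transcripts, edgeR called 0 at 30 and 750 mg/L NQ and at 34 mg/L MeNQ, while 1057, 875 and 652 were under 0.05 before adjustment. At those doses DESeq2 called 0.779%, 0.679% and 0.526% of the transcripts.

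The responses to both nitroguanidines were set against each other at the 4 matched molar doses, 8 comparisons over both members, each adjusted over all 14068 transcripts. For AIFM2-like the MeNQ change minus the NQ change was 0.52 at 0.3 mmol/L (95% interval -0.06 to 1.10) and 0.06 at 36 mmol/L (-0.52 to 0.64). At 1.4 and 7.2 mmol/L it was -0.11 (-0.69 to 0.47) and 0.25 (-0.33 to 0.84). For the transporter the differences were 0.56 (-0.33 to 1.46), 0.04 (-0.85 to 0.93), 0.08 (-0.81 to 0.98) and 0.01 (-0.87 to 0.90) from the lowest to the highest dose. None of the 8 passed (adjusted p from 0.686 to 1), against 0.0213%, 0.128%, 0.114% and 0.626% of all transcripts called at 0.3, 1.4, 7.2 and 36 mmol/L.

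Ordered by mean, the 5 highest AIFM2-like groups were, from the top, TNT 3.4, 2.3 and 1.5 mg/L and IMX-101 40 and 20 mg/L, followed by IMX-101 10 mg/L. The libraries at 3.4, 2.3 and 1.5 mg/L TNT did not overlap between neighbours, whereas 1.5 mg/L TNT overlapped 40 mg/L IMX-101. The other 12 groups had means of 55.4 to 126 CPM, and all 4 libraries of the TNT control, the lowest, lay below those of the next group, MeNQ 170 mg/L. How many of all transcripts separated in this way between groups of different experiments was not counted. For the transporter the order was TNT 3.4, IMX-101 40, TNT 2.3, IMX-101 20, IMX-101 10 and TNT 1.5 mg/L, and each of these groups overlapped its neighbour. The other 12 had means of 3.89 to 11.2 CPM, with NQ 3750 and MeNQ 4225 mg/L at their top and the TNT control again at the bottom. The TNT control was the lowest group for both transcripts, at 55.4 CPM against 90.6 to 120.2 CPM in the other 3 controls for AIFM2-like, and 3.89 against 6.07 to 7.90 CPM for the transporter. Controls of different exposures were separate experiments, and folds against them carry that difference.

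**Figure D3:**
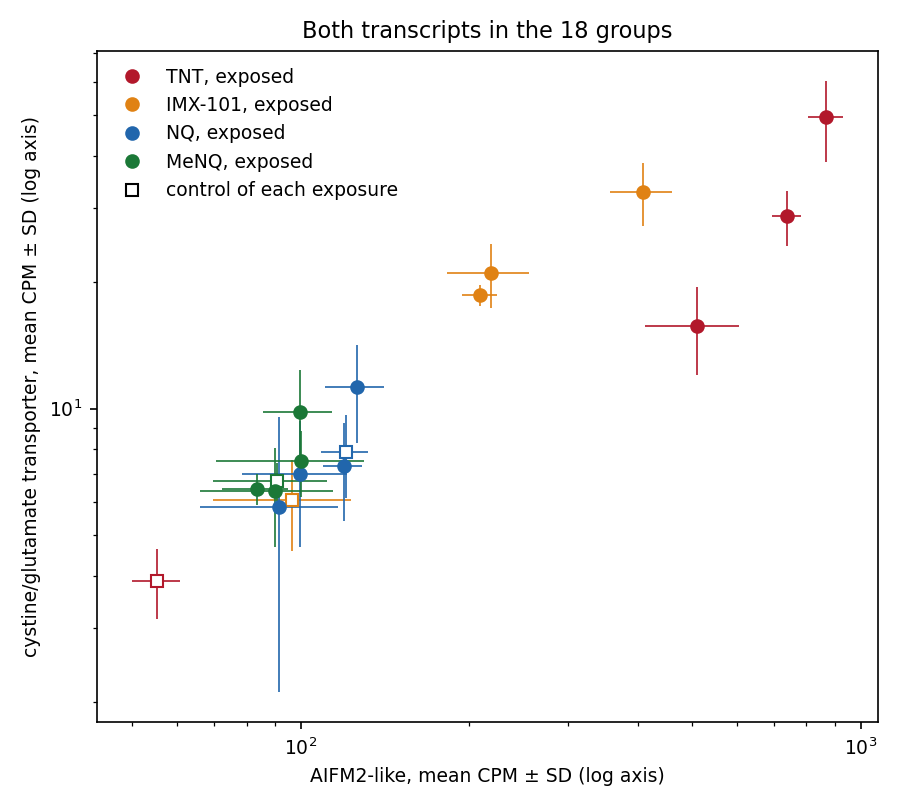
Mean CPM ± SD (n = 4) of the AIFM2-like transcript (x axis, log) and the transporter (y axis, log) in the 18 groups, with open squares for the 4 controls. IMX-101 groups lie above the TNT group nearest to them on the x axis, at 408 against 509 CPM AIFM2-like with 32.8 against 15.7 CPM of the transporter.

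In their means, the 2 transcripts moved in different proportion under TNT and IMX-101, and the difference between these exposures was not tested. The log2 ratio of transporter to AIFM2-like counts within a library needs no scaling for depth, and only its change between groups is read here. It was -3.80 ± 0.22 (SD, n = 4) in the TNT control and -5.03 ± 0.16, -4.70 ± 0.25 and -4.16 ± 0.25 from the lowest to the highest dose. The TNT control value rests on 5 to 40 transporter counts per library. All libraries at 1.5 and 2.3 mg/L lay below all controls, and those at 3.4 mg/L overlapped them. In the IMX-101 exposure the ratio was -3.97 ± 0.43 in the control and -3.48 ± 0.12, -3.38 ± 0.34 and -3.64 ± 0.18 at 10, 20 and 40 mg/L, higher in mean at each dose but overlapping the control. The AIFM2-like transcript led at the lower TNT doses, by 1.22 on the log2 scale at 1.5 mg/L, whereas under IMX-101 the transporter had the larger mean change at every dose. These ratios come from the contrasts that chose the members and carry no test. A rise in mean was not limited to IMX-101, where it was 0.49, 0.59 and 0.33 from the lowest to the highest dose. The ratio was 0.44 above its control at 3750 mg/L NQ and 0.35 above it at 4225 mg/L MeNQ, also overlapping the control and not tested.

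**Figure D4:**
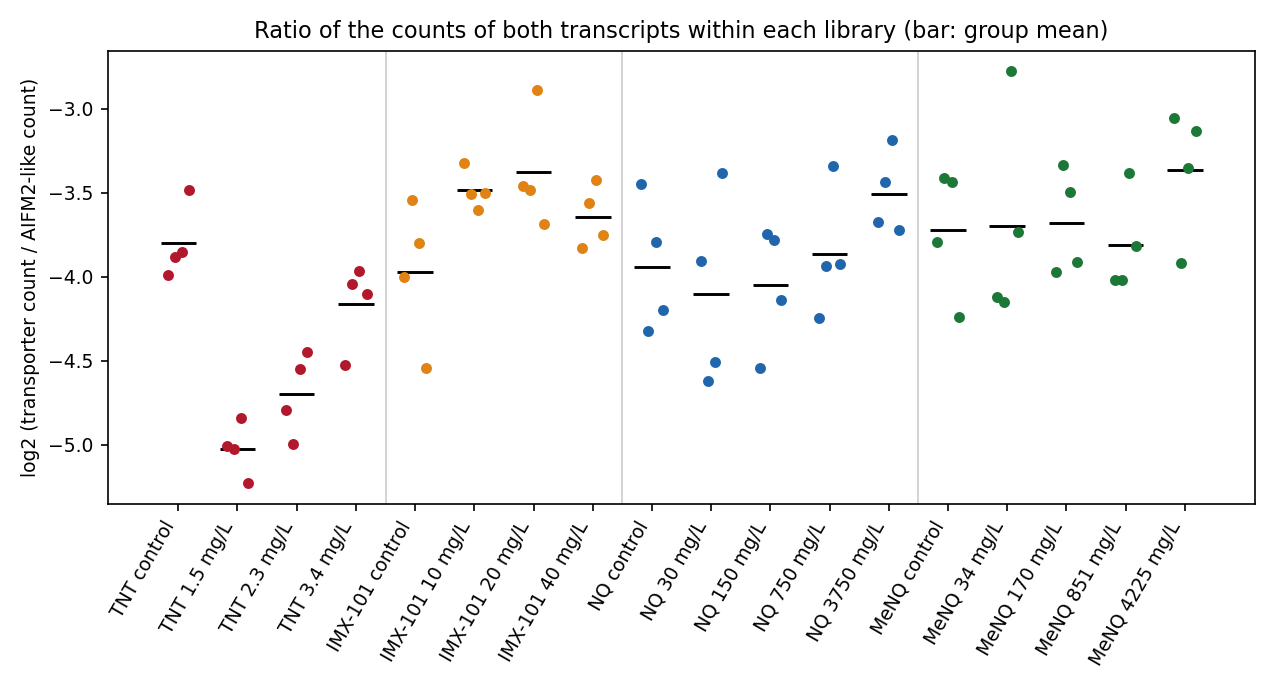
Log2 ratio of transporter counts to AIFM2-like counts within each of the 72 libraries, with a bar at each group mean (n = 4). The ratio drops from a mean of -3.80 in the TNT control to -5.03 at 1.5 mg/L and climbs back to -4.16 at 3.4 mg/L, while the exposed IMX-101 groups have means between -3.64 and -3.38.

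Over the 18 group means of log2(CPM + 1), both transcripts correlated with Pearson's r of 0.94 and Spearman's rho of 0.93. This is a description, as both were selected on their response to TNT, which is part of this pattern. AIFM2-like was the transcript most like the transporter among 12028 others with a mean of at least 1 CPM. For AIFM2-like, the transporter was at place 8. Within groups, deviations of single libraries from their group mean correlated with r = 0.41 over the 72 libraries, with r = 0.70 in the 16 TNT libraries, 0.66 in the 20 NQ, 0.36 in the 16 IMX-101 and 0.02 in the 20 MeNQ libraries. Both values of a library share its depth and scaling.

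With both members left out of the lists, the 5 transcripts most like AIFM2-like by Pearson's r were LOC733172 protein (0.95), hypothetical proteins XENTR_v90012153mg and XENTR_v90021806mg (both 0.94), apoptosis-inducing factor 2, which is described below, and a protein with AN1-like zinc finger and ubiquitin interaction motif (both 0.94). Those most like the transporter were hypothetical protein XELAEV_18040698mg (0.92), glutathione S-transferase alpha 1 (0.92), which conjugates glutathione to electrophiles, leucine-rich repeat-containing protein 58 (0.92), sulfiredoxin-1-like (0.91), which repairs over-oxidised peroxiredoxins, and a cytochrome P450 (0.90). By Spearman's rho, again without the members, which reached 0.93 with each other, the cytochrome P450 came first for both lists, at 0.94 for AIFM2-like and 0.92 for the transporter, and 1 and 2 of the 5 named transcripts were again among the first 5.

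Each protein had a second row in the table. Rana_pipiens_Transcript_256992, named apoptosis-inducing factor 2, held 2451 counts in all, 1.41% of the counts of both AIFM2 rows. It had counts of 0, 0, 0 and 9 in the TNT control, and 36 to 151, 42 to 225 and 98 to 403 at the 3 TNT doses. Its mean level went from 0.26 to 7.09, 12.6 and 20.1 CPM. In the IMX-101 groups the means were 0.89, 2.05, 3.25 and 4.20 CPM, a change at 40 mg/L of 2.23 ± 0.84 that did not pass (adjusted p = 0.15). The row was at 0 in all libraries at 30 and 3750 mg/L NQ, beside 0 to 20 counts per library in the NQ control. At neither dose did its change pass (adjusted p = 0.463 and 0.0721). Counts between similar rows are estimated from shared reads, so the rows are not independent. The second transporter row, Rana_pipiens_Transcript_043604, had 4 counts in 1 of the 72 libraries and passed no filter.

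The other genes of these pathways were counted from lists, 1 row for each gene. Where several rows matched a list gene or marker, as the 3 of ferritin heavy chain, the row of highest mean count was used. The other rows of such genes are not described. Of 99 genes sought by name, 51 had a row, and 39 to 44 passed the filter on low counts in each exposure. GPX4, SLC3A2, GCLM, GSR and NQO1 were sought, but no row matched by name, so they are not analysed here. Whether they have rows under other names was not examined. At 3.4 mg/L TNT 9 of 39 list genes were higher and 2 lower, where 6.37% and 5.61% of all transcripts were. At 40 mg/L IMX-101 5 of 42 were higher and 1 lower, against 3.84% and 3.68% of all transcripts. These IMX-101 counts were 3 higher and 2 lower without library D at 40 mg/L, and 3 were lower without library C at that dose or by DESeq2. All libraries at 40 mg/L IMX-101 came from a run set of their own. For list genes and markers, as for the members, dose and run set cannot be told apart at this dose. At 3750 mg/L NQ 0 of 43 were higher and 3 lower, against 1.39% and 3.09%, and at 4225 mg/L MeNQ 0 of 44 and 1, against 0.119% and 0.274%. DESeq2 called 6 list genes lower under NQ and 1 higher under each of NQ and MeNQ. Without library C at 3750 mg/L NQ, edgeR called 1 higher. Under NQ an unadjusted p was under 0.05 for 4 list genes with a positive change and 9 with a negative one. Under MeNQ it was so for 5 and 1. Over all transcripts, in both directions, 2117 of 12969 and 1352 of 13496 were under 0.05 at these doses.

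Around cystine and glutathione, few list genes were measurable. The catalytic subunit of glutamate-cysteine ligase, which makes the precursor of glutathione, had a mean of 0.15 CPM and passed the filter in no exposure. Glutathione synthetase, the second enzyme, changed by 2.56 ± 1.19 under TNT and did not pass (adjusted p = 0.22). Its level was low, at 0.55 ± 0.72 CPM (SD, n = 4) in the TNT control and 3.54 ± 0.90 CPM at 3.4 mg/L. Methionine adenosyltransferase II alpha, which makes the methyl donor upstream of cysteine synthesis, rose by 0.73 ± 0.08 under TNT (adjusted p = 1.91e-05) and fell by 0.56 on the log2 scale under IMX-101 (± 0.12, adjusted p = 0.0129). Its control means lay apart, at 781 CPM for TNT and 2006 CPM for IMX-101. At the highest doses the means were 1269 and 1357 CPM. In all 1 of 4 tested genes was higher under TNT, with a median change of 0.39 beside 0.06 over all transcripts. Under IMX-101 0 of 5 were higher and 1 lower, with a median of -0.56 beside -0.05. Adenosylhomocysteinase, a later enzyme of the same route, had -1.55 ± 0.44 under NQ (adjusted p = 0.0557), and cystathionase was at -1.32 ± 1.45 under IMX-101. Of the light chains related to the transporter, the Y+L amino acid transporter 2 rose by 0.43 ± 0.06 under TNT (adjusted p = 0.000246). It was 1 of 3 tested there, and none of 4 passed under IMX-101, where asc-type transporter 1 was at -0.38 ± 0.11 (adjusted p = 0.0521).

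The list of lipid peroxide defence held mostly genes of ubiquinone, biopterin and vitamin K. Of these compounds, AIFM2 reduces ubiquinone and vitamin K in mammals. In this list 1 of 15 tested genes was higher and 1 lower under TNT, and 3 of 15 were higher under IMX-101. Quinoid dihydropteridine reductase, which regenerates tetrahydrobiopterin, rose under TNT (0.98 ± 0.09, adjusted p = 6.88e-06) and IMX-101 (0.33 ± 0.08, adjusted p = 0.0151). GTP cyclohydrolase 1, which starts biopterin synthesis, fell by 0.60 under TNT (± 0.13, adjusted p = 0.00546) and rose by 0.90 ± 0.11 under IMX-101 (adjusted p = 0.000167). Its means went from 319 to 207 CPM under TNT and from 212 to 397 CPM under IMX-101. COQ4, which acts in ubiquinone synthesis, rose by 0.50 ± 0.12 under IMX-101 (adjusted p = 0.0181). The median change of this list was 0.09 under TNT and -0.04 under IMX-101, close to the medians of all transcripts, 0.06 and -0.05. Vitamin K epoxide reductase subunit 1 fell by 1.90 under NQ (± 0.39, adjusted p = 0.0113), where it was the only one of 15 called.

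**Figure D5:**
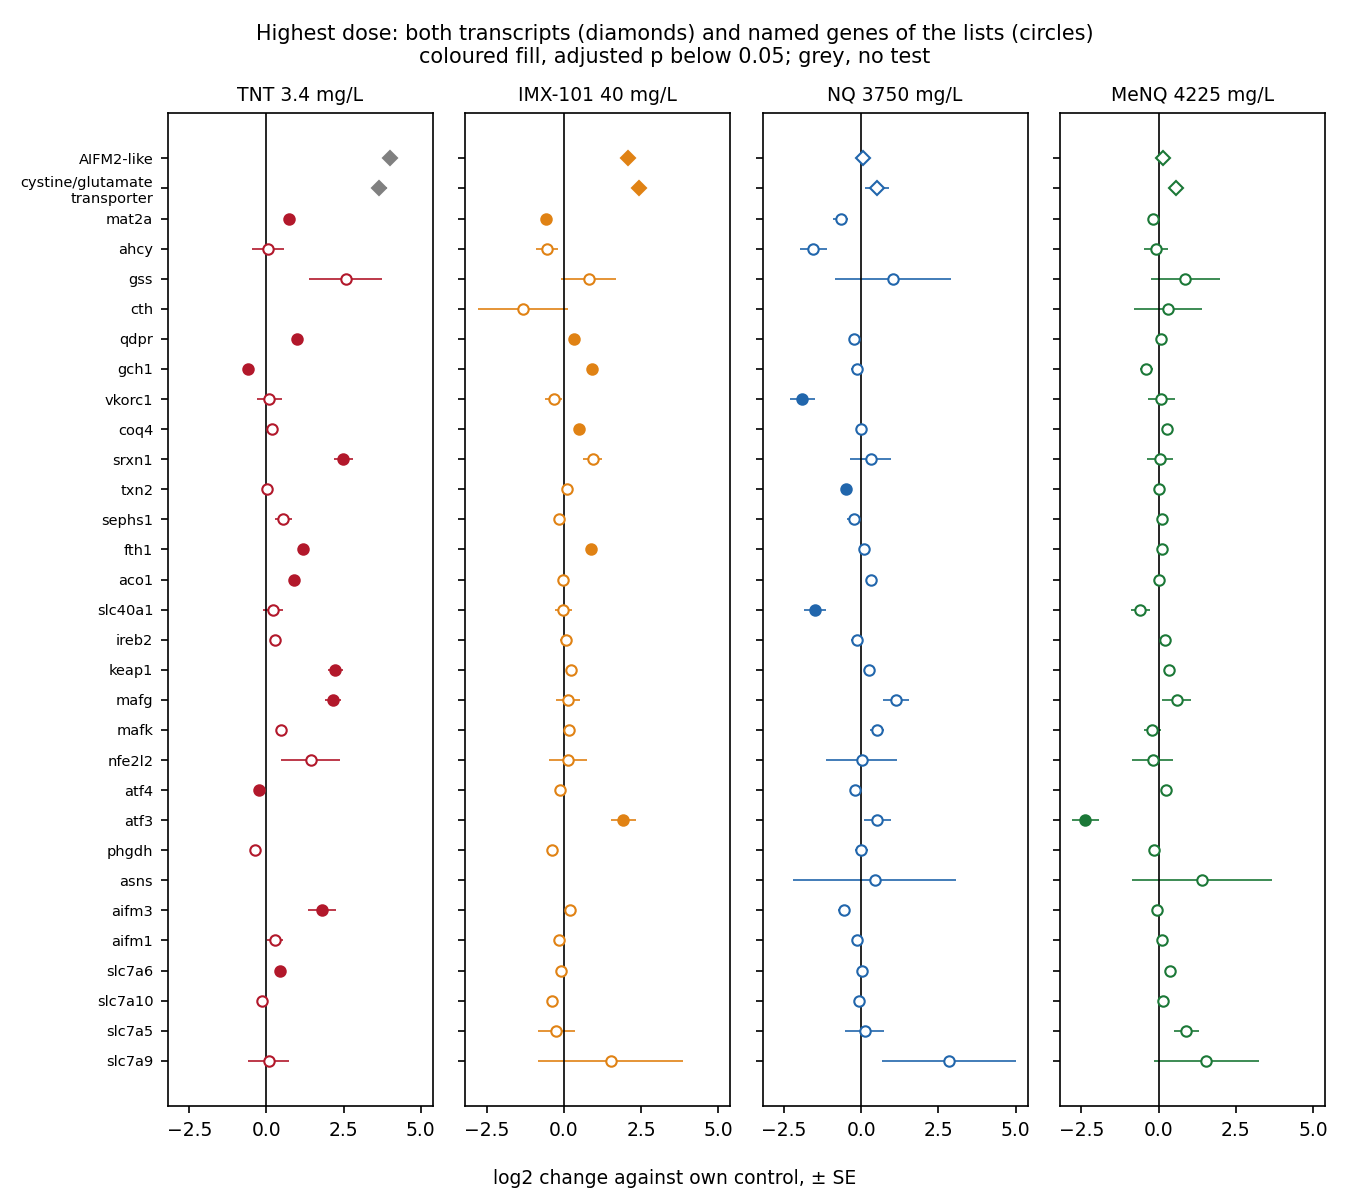
Log2 change ± SE against the control at the highest dose of each exposure for both transcripts (diamonds) and up to 4 named genes of each pathway list (circles), with coloured fill where the adjusted p is below 0.05 and grey where no test was made. Both transcripts stand at 3.99 and 3.66 under TNT and at 2.09 and 2.43 under IMX-101, and the listed genes called higher reach 2.49 under TNT and 1.93 under IMX-101.

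The regulators and other antioxidant genes were called mainly under TNT. KEAP1, which holds NRF2 for degradation, rose by 2.24 ± 0.23 (adjusted p = 1.84e-05), and MafG, a DNA-binding partner of NRF2, by 2.16 ± 0.26 (adjusted p = 7.07e-05), so 2 of 4 tested genes of NRF2 regulation were higher under TNT and none of 4 under IMX-101. KEAP1 under IMX-101 was at 0.22 ± 0.07 (adjusted p = 0.0944). NRF2 itself, at 1.43 ± 0.95 under TNT and 0.15 ± 0.62 under IMX-101, did not pass. Sulfiredoxin-1-like rose by 2.49 ± 0.30 under TNT (adjusted p = 8.15e-05), 1 of 3 in its list, and was at 0.94 ± 0.30 under IMX-101 (adjusted p = 0.0831). The difference between the exposures was not tested.

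Of the iron and lipid substrate genes 2 of 6 were higher under TNT and 1 of 6 under IMX-101. Ferritin heavy chain, which stores iron, rose by 1.19 ± 0.07 (adjusted p = 2.84e-07) and 0.88 ± 0.08 (adjusted p = 1.40e-05). Cytoplasmic aconitase, which also serves as iron-regulatory protein 1, rose by 0.88 ± 0.12 under TNT (adjusted p = 0.000177), and ferroportin, the iron exporter, fell by 1.49 under NQ (± 0.37, adjusted p = 0.0268). Of the amino acid stress genes, ATF4, a transcription factor that in mammals also drives SLC7A11, fell by 0.23 under TNT (± 0.04, adjusted p = 0.00248) and was at -0.13 ± 0.07 under IMX-101. ATF3 rose by 1.93 ± 0.40 under IMX-101 (adjusted p = 0.00879), fell by 2.37 under MeNQ (± 0.43, adjusted p = 0.0213) and did not pass the filter in the TNT libraries. It was the 1 list gene called lower under MeNQ, and none was called without control library A, B or C or without library B, C or D at 4225 mg/L. Of the relatives of AIFM2, AIFM3 rose by 1.81 ± 0.46 under TNT (adjusted p = 0.0175), and AIFM1, the mitochondrial apoptosis-inducing factor, was at 0.28 ± 0.27 (adjusted p = 0.662). Mitochondrial thioredoxin fell by 0.50 under NQ (± 0.09, adjusted p = 0.00616).

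Markers of several tissues moved with TNT as well. The summed level of both liver markers with a row, transthyretin and fetuin-B, was 639.5 to 825 CPM in the TNT control and 134 to 219 CPM at 3.4 mg/L, and both were called lower. Both gut markers were lower, from 3845 to 5459 CPM down to 1711 to 2718 CPM, and 2 of 2 tested globins were higher, with all 3 blood markers summing to 1688 to 4474 CPM in the control and 6318 to 12014 CPM at 3.4 mg/L. At 40 mg/L IMX-101, where dose and run set cannot be told apart, no liver or gut marker was called. Globin alpha was lower at that dose, and globin beta was at 0.37 ± 0.36 (adjusted p = 0.723). The erythroid marker ALAS2, at a mean of 0.15 CPM over the 72 libraries, passed the filter in no exposure. It was at 0 in the 4 libraries at 40 mg/L IMX-101. In the NQ control and at 2.3 mg/L TNT, 750 mg/L NQ and 34 mg/L MeNQ, 1 of the 3 blood markers was also at 0. Of 3 muscle markers 1 was higher and 1 lower at 40 mg/L IMX-101. Under TNT 1 of 3, myosin-4-like, fell by 1.82 (± 0.21, adjusted p = 5.61e-05). Among the skin markers 1 of 3 was lower under TNT and none of 3 was called under IMX-101. The myelin marker was at 0 in all 18 groups, controls included. The part of these shifts in the members' levels was not tested.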

How the data were processed

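Poly-A RNA of pooled whole tadpoles was sequenced in 72 libraries (4 per group, 18 groups), with stranded libraries per the labels' protocols. The deposited tables hold estimated counts per transcript, and per the submitters' processing notes bcl2fastq 1.8.4 and Salmon were used. Assembly and annotation: not given in the sources used here. The deposited counts of each library were the mean of its sequencing runs (within 5.5e-05), so the 134 deposited runs were summed per library and rounded instead. A total of 62 libraries had 2 runs and 10 had 1.

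Within each exposure, transcripts with low counts were removed by filterByExpr, counts were TMM-scaled and fitted with edgeR 4.0.16 (quasi-likelihood F test, Benjamini-Hochberg over all transcripts, threshold 0.05). CPM used TMM over all 72 libraries. Ratios of counts used an offset of 0.5, and likeness used log2(CPM + 1) of group means. MeNQ and NQ were fitted together for their difference. DESeq2 1.42.0 was an alternative. Members, lists and tests were chosen with earlier results of these data known, and the 1 duplicated transcript ID was kept as a separate row. Up to 4 genes per list were named, those of smallest adjusted p at the highest dose of any exposure. Nothing in the labels says that beakers with the same letter belong together, and the letters did not pair the libraries (0 to 3 of 24 to 40 pairs per exposure correlated over 0.1). Library totals of 1674617 to 21656267 counts set the precision.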

Additional observations from a re-analysis of the deposited data

Results flagged for a closer look

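In 1 of the 36 sets of 4 libraries examined (2 transcripts in 18 groups) a library stood apart from the other 3. It was library A at 40 mg/L IMX-101, where the transporter had 24.5 CPM and the next library 35.1 CPM, a gap of 0.875 of the group's whole range. Chance alone gives such a gap in about 1 of 20 sets. Without this library the transporter's change at 40 mg/L was 2.55, and with all 4 it was 2.43.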

How the results depend on the processing

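Of 760 recomputed values of the 2 members, 715 kept their direction and their side of the threshold (for TNT, their value within 1 SD between replicates). For TNT and IMX-101 243 of 244 did, and over the TNT doses AIFM2-like stayed between 3.07 and 4.04 and the transporter between 1.85 and 3.80. The exception was AIFM2-like at 10 mg/L IMX-101 with only the libraries compared (1.11), whose adjusted p ran from 1.38e-07 to 0.0636 over its alternatives. None of the 516 values for NQ, MeNQ or their difference passed the threshold. The reversals were all of values near 0. AIFM2-like at 150 mg/L NQ was -0.00135 with DESeq2 size factors, -0.0026 with no filter on low counts, -0.00848 with the deepest run only, -0.00118 with DESeq2's Wald test and -0.000503 with sequencing lane as a term. At 851 mg/L MeNQ it was 0.00234 with DESeq2 size factors, 0.00227 with the Wald test, 0.00107 with the mean of the runs and 0.00113 with the other AIFM2 row added, and its MeNQ slope was -0.00102 with the deepest run. With the replicate block the transporter's difference at 36 mmol/L was -0.000781, and it changed the call of no member. Leaving out 1 library at a time, AIFM2-like ranged from -0.064 to 0.044 at 150 mg/L NQ, -0.017 to 0.31 at 34 mg/L MeNQ and -0.20 to 0.13 at 851 mg/L MeNQ. The transporter ranged from -0.25 to 0.044 at 150 mg/L NQ and -0.21 to 0.048 at 851 mg/L MeNQ. The MeNQ minus NQ difference ranged from -0.22 to 0.00294 (1.4 mmol/L) and -0.052 to 0.17 (36 mmol/L) for AIFM2-like, and from -0.10 to 0.19, -0.059 to 0.26 and -0.15 to 0.23 (1.4, 7.2 and 36 mmol/L) for the transporter. With 1 library left out, 3 to 5 list genes were called higher and 1 to 3 lower at 40 mg/L IMX-101. They ranged from 0 to 1 higher at 3750 mg/L NQ and from 0 to 1 lower at 4225 mg/L MeNQ. Over the other settings 4 to 7 were higher at 40 mg/L IMX-101. At 3.4 mg/L TNT these settings gave 8 to 11 higher and 2 to 3 lower. Lower list genes at 40 mg/L IMX-101 numbered 2 with the mean of the runs or the deepest run and 3 with DESeq2, which at the highest NQ dose called 1 higher and 6 lower and at the highest MeNQ dose 1 higher. Over all transcripts DESeq2 called more than edgeR, for example 2083 against 1516 at 3.4 mg/L TNT, 1470 against 942 at 40 mg/L IMX-101, 1147 against 581 at 3750 mg/L NQ and 348 against 53 at 4225 mg/L MeNQ, and the cause was not tested. By Spearman's rho 1 and 2 of the 5 most alike transcripts were shared. Alternatives with sequencing lane, run sets, without the single-run TNT libraries or with a second row added, those of the slopes, and the steps between doses were chosen after seeing the data, and lane was not fitted for IMX-101, whose libraries do not allow it. Low transporter counts limit its precision in the control, NQ and MeNQ libraries.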

Other observations

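Agreement between the sequencing runs of a library was measured in the 62 libraries with 2 runs. For AIFM2-like, CPM of both runs differed by a median of 0.09 on the log2 scale and by less than 0.1 in 33 libraries. For the transporter, with fewer counts, the median was 0.26, and 9 libraries differed by less than 0.1. The widest gap of the transporter was in library C at 851 mg/L MeNQ, with 7.91 CPM in the deeper run and 2.26 CPM in the other, where it rested on about 1 count.

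The spread between libraries of a group exceeded the counting error of AIFM2-like in all 18 groups, with a coefficient of variation of 5.997% to 29.5% against 1.01% to 4.86% expected from the mean count of the group. For the transporter the same values were 5.93% to 63.8% and 4.21% to 18.03%, and at 10 mg/L IMX-101 (5.93% against 6.32%) and MeNQ 170 mg/L (8.48% against 10.4%) the libraries agreed within counting error. An error taken from the mean count is too low where counts are unequal. In the TNT control, with 5 to 40 counts of the transporter, 18.9% against 18.03% therefore shows no spread beyond counting error.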
